A study of Rattus norvegicus with 15 samples.

Results

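The insulin-like growth factor (IGF) axis was described across control liver, cirrhotic liver and hepatocellular carcinoma of the rat. Its members were all probes whose single gene symbol in the platform annotation was Igf1, Igf2, Igf1r, Igf2r, Igfals or Igfbp followed by a digit. The rule found 10 of the 3757 probes, for 9 of 3400 named genes: 2 ligand probes (Igf1, Igf2), 3 receptor probes (both for Igf1r, and Igf2r), and 5 probes for carriers (Igfals, Igfbp1, Igfbp2, Igfbp3 and Igfbp5). All 10 matched a RefSeq rat gene of the same symbol through the gene identifier.

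Liver RNA came from 15 samples of male Fischer344 rats (written Fischer for control 1), all after 70 weeks on a diet, with 5 samples a group. Controls were normal livers of rats given a basal diet. The carcinomas, and the noncancerous cirrhotic liver next to such tumours, came from rats on a choline-deficient, L-amino acid-defined diet, which damages the liver without an added carcinogen. The labels name no animal. Control rats had another diet, so they share no rat with the other groups. Whether noncancerous and carcinoma samples with one number share a rat is unknown. The p-values thus measure the spread between samples, which may be technical. The tissue is whole liver or whole tumour, in which fewer cells of a type and less RNA per cell cannot be told apart.

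As background, IGF1 is made mainly by hepatocytes under growth hormone, and IGF2 is a fetal growth factor that liver tumours can make again. Both signal through the receptor tyrosine kinase IGF1R, whereas IGF2R, also the mannose 6-phosphate receptor, takes IGF2 up for breakdown. The binding proteins hold the ligands away from the receptor or deliver them, and IGFBP3 or IGFBP5 forms the long-lived complex of plasma with IGF and the acid-labile subunit, the product of Igfals.

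Values are the deposited ratios of each probe to its own median over the 15 arrays, quantile-normalized and given as log2, called log2 ratios here. A log2 ratio of 0 is thus close to a probe's median sample, and levels of different probes cannot be compared. Differences between groups come from 1 limma fit of all probes, with Benjamini-Hochberg adjustment of p-values across the whole array and a threshold of 0.05. No probe of the array, and so none of the 10, passed in any of the 3 comparisons, and the median half-width of a 95% interval was 1.27. The deposited lower limit of 0.01 was reached by 1 member value, that of Igfals in noncancerous 1. Over all probes control 1 had 229 and noncancerous 1 had 209 values at this limit, against 0 to 76 in the other samples. An alternative fit left both out. Array ratios shifted along the probe numbering, and 9 of the 10 probes lie between numbers 410 and 903, so differences are also given after subtracting, in each sample, a running median of the probes numbered nearby (50 on either side), where it matters.

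**Figure D1:**
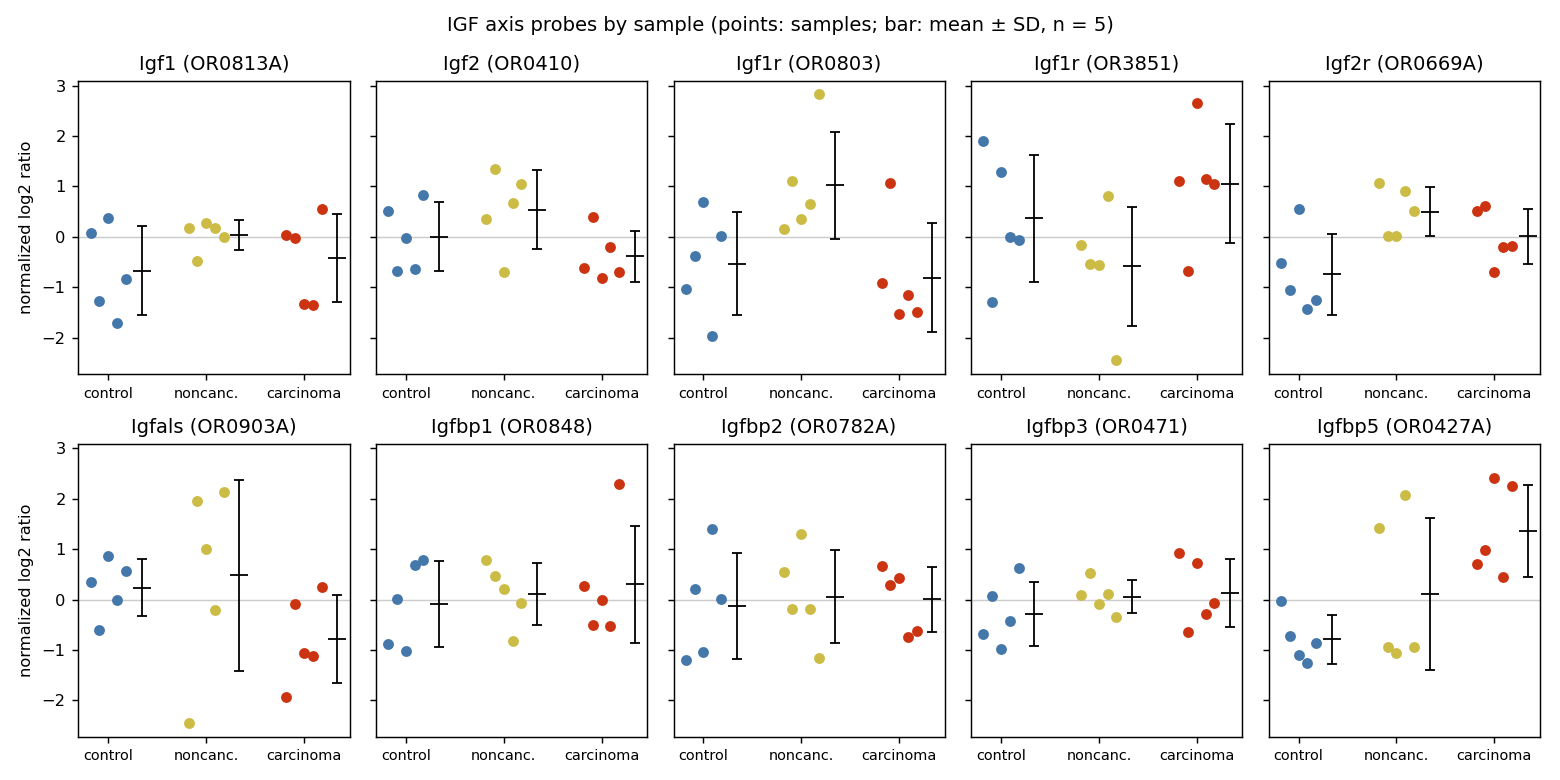
Normalized log2 ratio (y axis) of the 10 IGF axis probes in control, noncancerous cirrhotic and carcinoma samples (x axis); points are samples in replicate order, and the black bars are the mean ± SD of 5 samples. Igfbp5 in carcinoma lies between 0.45 and 2.41, above every control sample, while all other pairs of groups overlap.

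Igfbp5, a binding protein that also sits in extracellular matrix, was the member with the clearest contrast, and it was already known for it from earlier results of these data. In control liver its log2 ratios were -0.03, -0.71, -1.10, -1.26 and -0.87 in samples 1 to 5. In carcinoma they were 0.70, 0.98, 2.41, 0.45 and 2.26. The lowest carcinoma therefore stood above the highest control, and this held for the deposited values and with the running median removed. In noncancerous cirrhotic liver the log2 ratios of Igfbp5 were 1.42, -0.95, -1.05, 2.07 and -0.94. Noncancerous 1 and 4 were thus within the range of the carcinomas and the other 3 within that of the controls.

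The means of Igfbp5 were -0.79 ± 0.48 in control, 0.11 ± 1.51 in noncancerous and 1.36 ± 0.91 in carcinoma samples (SD, n = 5 each). Carcinoma differed from control by 2.15 (95% interval 0.85 to 3.46, limma adjusted p = 0.459), a 4.44-fold difference that did not pass over all probes. Leaving out any 1 sample moved it only between 1.89 and 2.38, and it was 2.13 (0.88 to 3.39) with the running median removed. Of all probes, 99.3% had a smaller difference in this comparison. Noncancerous liver differed from control by 0.90 (-0.40 to 2.21, adjusted p = 0.628; 0.41 without noncancerous 4), and carcinoma from noncancerous liver by 1.25 (-0.06 to 2.55, adjusted p = 0.396; 1.63, 0.38 to 2.89, with the running median removed). Neighbouring groups in the order control, noncancerous, carcinoma overlapped.

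Markers of cells that could carry Igfbp5 were set beside it. Stellate cell and myofibroblast markers (17 measured of 22) had a mean log2 ratio per sample between -0.50 and 0.30 in control, between -0.50 and 0.09 in noncancerous and between -0.45 and 0.26 in carcinoma samples. The groups overlapped for this list, 10 of the 17 lay above 0 between carcinoma and control with a median difference of 0.24, and 0 passed the test. Between noncancerous and control liver 8 of its markers lay above 0 and 9 below, with a median of -0.10. They ran from Pdgfra (1.77) to Vim (-1.37), with the collagens Col1a1 (-1.11), Col1a2 (-0.14) and Col3a1 (-1.34) below 0. The probes of Vim (OR3063), Col1a1 (OR3336) and Col3a1 (OR3101A) have higher numbers than that of Pdgfra (OR0515B). The part of the numbering shift in these values was not tested. Between carcinoma and control the same list ran from Col1a2 (0.88) to Pdgfrb (-0.79), with Col1a1 at 0.0051 and Col3a1 at 0.59. Cholangiocyte markers (6 of 11) lay between -0.48 and 0.62 in control and between -0.50 and 0.44 in carcinoma. Endothelial markers (6 of 14) lay between -0.29 and 0.85 in control and between -0.32 and 0.13 in carcinoma. The hepatocyte markers (21 of 26), which define the labelled tissue, lay between -0.87 and 0.53 in control and between -0.48 and 0.78 in carcinoma, and macrophage and lymphocyte markers (9 of 20) between -0.87 and 0.50 and between -0.08 and 0.53. All marker values here are as normalized, without the running median removed. Centred ratios cannot show whether a marker was absent, and the part of these cells in the Igfbp5 values was not tested.

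The genes whose pattern was most like that of Igfbp5 over the 15 samples, by Pearson's r of log2 ratios, were Hes2 (a transcriptional repressor of the hairy family, r = 0.88), Trip10 (an adaptor of Cdc42, r = 0.85) and Prkaca (the catalytic subunit of protein kinase A, r = 0.84). These were the highest values of all named probes, as a description only. With the running median removed r was 0.74, 0.82 and 0.80, and other genes then ranked above all 3.

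The other binding proteins did not separate any groups. Igfbp3, the main carrier of IGF in plasma, ranged from -0.99 to 0.63 in control, from -0.35 to 0.53 in noncancerous and from -0.64 to 0.92 in carcinoma samples. Its carcinoma minus control difference was 0.41 (-0.56 to 1.38, adjusted p = 0.847), and 0.22 without carcinoma 1 or 0.64 without control 5. Igfbp2, a binding protein of fetal and fasted liver, ranged from -1.20 to 1.40, from -1.17 to 1.296 and from -0.74 to 0.66 in the same order, with a carcinoma minus control difference of 0.12 (-1.04 to 1.29; -0.14 without control 1). Igfbp1, which hepatocytes release when insulin is low, ranged from -1.03 to 0.79, from -0.83 to 0.79 and from -0.52 to 2.29. Its difference was 0.39 (-0.78 to 1.56), and -0.11 without carcinoma 5, the sample at 2.29. For each of these 3 genes the intervals of all 3 comparisons included 0, so the direction of any difference was not resolved with 5 samples a group.

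In the GRCr8 rat assembly Igfbp2 and Igfbp5 are adjacent protein-coding genes on chromosome 9, and Igfbp1 and Igfbp3 are adjacent on chromosome 14, with 0 protein-coding genes between them. Between carcinoma and control, Igfbp2 and its neighbour Igfbp5 differed by 0.12 and 2.15, and Igfbp1 and Igfbp3 by 0.39 and 0.41. Between noncancerous and control liver the values were 0.18 and 0.90 for the first pair and 0.20 and 0.34 for the second.

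Igfals, the acid-labile subunit made by hepatocytes, had log2 ratios of 0.34, -0.61, 0.87, -0.0020 and 0.57 in control samples 1 to 5. In noncancerous liver they were -2.46, 1.95, 1.004, -0.22 and 2.14, and in carcinoma -1.93, -0.10, -1.06, -1.11 and 0.25. Of the carcinomas 4 of 5 lay below 0, but the groups overlapped. The -2.46 of noncancerous 1 stands for the value at the deposited limit, and the SD of the group was 1.89. Carcinoma differed from control by -1.02 (-2.44 to 0.40, adjusted p = 0.754) and from noncancerous liver by -1.27 (-2.70 to 0.15, adjusted p = 0.413), or by -2.01 without noncancerous 1 and by -0.20 on the deposited values. The noncancerous minus control difference was 0.25 (-1.17 to 1.67), but 0.99 without noncancerous 1, -0.82 on the deposited values or with arrays scaled to the same median, and -0.19 with the running median removed, so it had no settled direction.

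**Figure D2:**
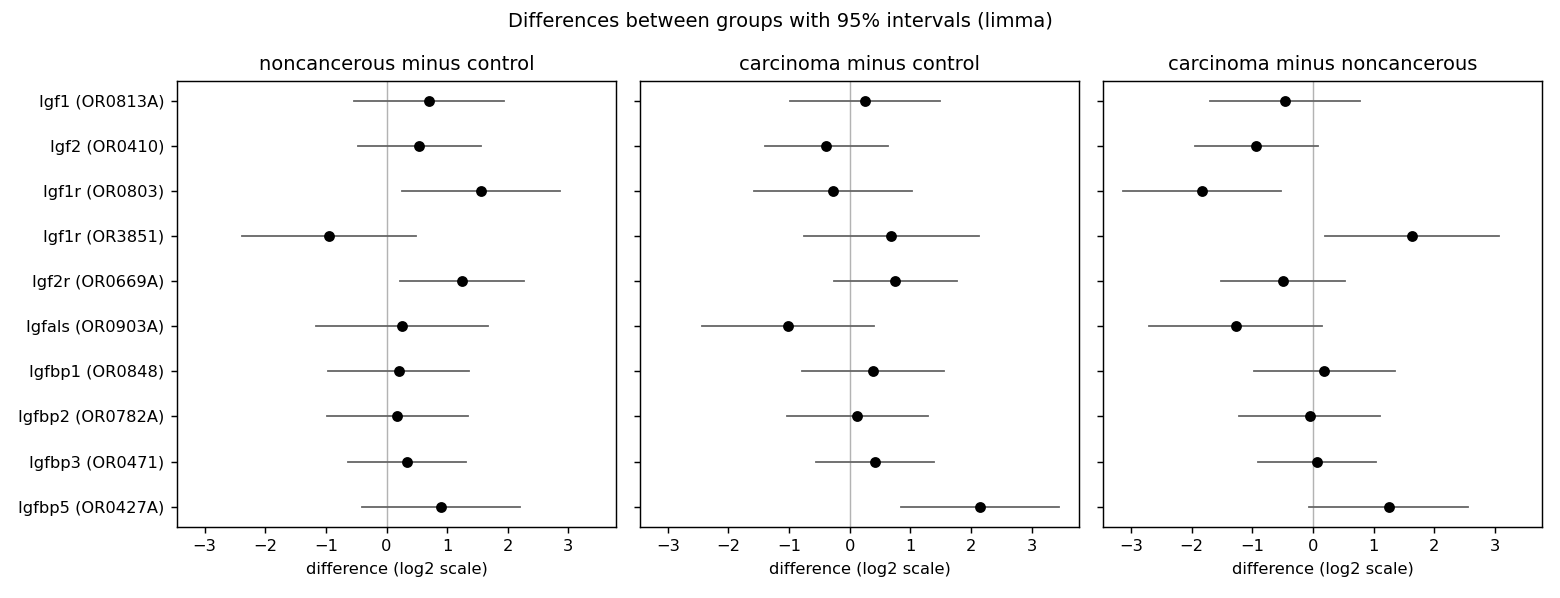
Differences between groups on the log2 scale (x axis) for the 10 IGF axis probes (y axis), 1 panel per comparison; points are limma estimates and lines 95% intervals. The intervals that lie to 1 side of 0 are those of Igfbp5 between carcinoma and control (0.85 to 3.46), of both Igf1r probes between carcinoma and noncancerous liver, and of Igf2r and Igf1r OR0803 between noncancerous and control liver.

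Neither ligand separated any groups. Igf1 had log2 ratios of 0.07, -1.27, 0.38, -1.72 and -0.84 in control samples 1 to 5, of 0.18, -0.47, 0.27, 0.18 and -0.00039 in noncancerous liver, and of 0.04, -0.02, -1.34, -1.35 and 0.55 in carcinoma. Controls and carcinomas each held both high and low samples, and the noncancerous samples lay closer together (SD 0.30, against 0.89 in control and 0.87 in carcinoma). Noncancerous liver differed from control by 0.71 (-0.53 to 1.94, adjusted p = 0.684), and by 0.35 with the running median removed or 0.45 without control 4. Carcinoma differed from control by 0.25 (-0.98 to 1.49, adjusted p = 0.941; -0.0084 without control 4) and from noncancerous liver by -0.45 (-1.69 to 0.78, adjusted p = 0.757; -0.22 without carcinoma 4).

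Igf2 had log2 ratios of 0.52, -0.69, -0.03, -0.64 and 0.84 in control samples 1 to 5, and of 0.35, 1.34, -0.70, 0.68 and 1.04 in noncancerous liver. In carcinoma they were -0.62, 0.40, -0.82, -0.20 and -0.70. Of the carcinomas 4 of 5 lay below 0 and of the noncancerous samples 4 of 5 above it, and these groups overlapped, with carcinoma 2 above noncancerous 1 and 3. The order of means was carcinoma (-0.39 ± 0.50), control (0.0010 ± 0.68) and noncancerous liver (0.54 ± 0.79; SD, n = 5 each), and neighbours in it did not differ beyond their spread. The ends of the order differed by -0.93 (-1.95 to 0.08, adjusted p = 0.406), and by -0.60 (-1.53 to 0.33) with the running median removed. Carcinoma differed from control by -0.39 (-1.41 to 0.63, adjusted p = 0.858), and by -0.18 without control 5. The genes most like Igf2 over the 15 samples were Sstr1 (a somatostatin receptor, r = 0.87), Il1r1 (the signalling interleukin-1 receptor, r = 0.86) and Epha5 (an ephrin receptor, r = 0.86). With the running median removed r was 0.83, 0.73 and 0.79, and their ranks among the named probes outside the axis were 2, 36 and 10.

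Igf1r, the signalling receptor, has 2 probes on the array, OR0803 and OR3851, and they ran against each other. Probe OR0803 read -1.04, -0.38, 0.70, -1.98 and 0.02 in control samples 1 to 5, 0.17, 1.10, 0.36, 0.65 and 2.83 in noncancerous liver, and -0.92, 1.06, -1.54, -1.16 and -1.50 in carcinoma. All 5 noncancerous samples lay above 0, and 4 of 5 carcinomas below -0.90, with carcinoma 2 apart from them. Probe OR3851 read 1.91, -1.30, 1.29, -0.0020 and -0.07 in control, -0.17, -0.54, -0.55, 0.80 and -2.45 in noncancerous liver, and 1.11, -0.69, 2.65, 1.15 and 1.05 in carcinoma. Here 4 of 5 carcinomas were high and 4 of 5 noncancerous samples below 0, the opposite arrangement. Carcinoma 2 was the highest carcinoma on OR0803 and the lowest on OR3851, and noncancerous 5 was likewise the highest and the lowest of its group.

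Between carcinoma and noncancerous liver, OR0803 differed by -1.83 (-3.13 to -0.53, limma adjusted p = 0.247) and OR3851 by 1.64 (0.20 to 3.07, adjusted p = 0.323). With the running median removed they differed by -1.44 (-2.62 to -0.25) and 0.95 (-0.53 to 2.43). Between noncancerous and control liver the differences were 1.56 (0.26 to 2.86, adjusted p = 0.421) and -0.95 (-2.38 to 0.49, adjusted p = 0.646), or 1.14 (-0.04 to 2.33) and -0.03 with the running median removed. Between carcinoma and control they were -0.27 (-1.57 to 1.03; 0.035 without control 3) and 0.69 (-0.75 to 2.13; 0.27 without control 2). No direction for Igf1r transcript can be taken from these data.

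Over the 15 samples the log2 ratios of both probes had a Pearson r of -0.68 (permutation p = 0.0052) and a Spearman rho of -0.59 (permutation p = 0.0228), the 1 relation tested in this way. Without noncancerous 5 and control 4, the samples farthest from the median of OR0803, r was -0.63 (permutation p = 0.0225), and with the running median removed -0.66 (permutation p = 0.00674). All these permutations moved samples across groups, so their p-values do not tell differences between groups apart from a relation within groups. Within groups of 5 samples r was 0.08 in control, -0.84 in noncancerous liver and -0.88 in carcinoma. The gap between the probes (OR0803 minus OR3851), examined after its values were seen, was -0.90 ± 1.56 in control, 1.60 ± 2.16 in noncancerous and -1.87 ± 2.19 in carcinoma samples (SD, n = 5 each). It differed by -3.47 between carcinoma and noncancerous liver (two-sided exact permutation p = 0.0397, adjusted 0.0952 over 3 comparisons), which did not pass after adjustment. On the whole array, 38 genes had several probes, and over their 42 probe pairs r had a median of -0.03 and ran from -0.83 to 0.76, with 21 pairs below 0 and 1 pair below that of Igf1r. The other 8 genes of the axis, Igfbp5 and Igf2 among them, have 1 probe each, so no second probe stands beside their values, and whether each probe reports the gene it is named for was not tested.

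**Figure D3:**
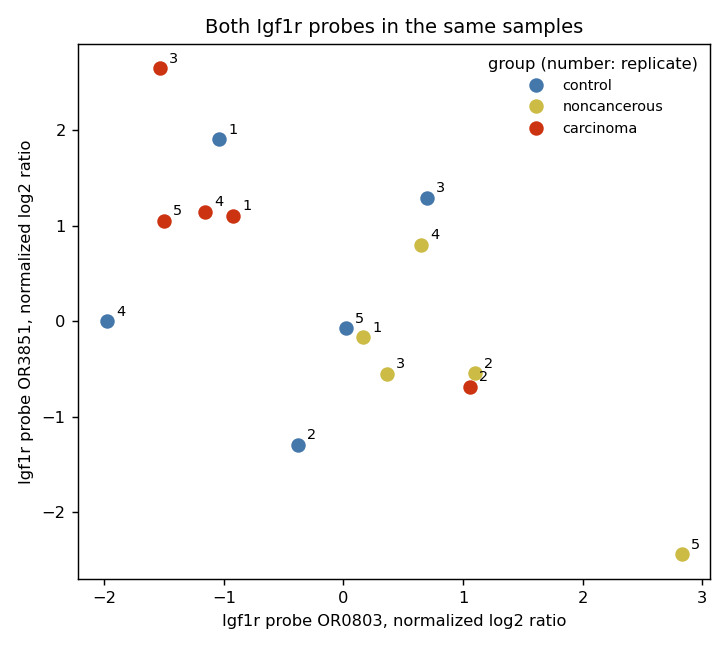
Normalized log2 ratio of Igf1r probe OR0803 (x axis) against that of probe OR3851 (y axis) in the 15 samples, coloured by group and numbered by replicate. High readings of 1 probe go with low readings of the other (r = -0.68), and noncancerous 5 and carcinoma 3 lie near the ends.

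Igf2r, the clearing receptor of IGF2, read -0.52, -1.06, 0.56, -1.43 and -1.26 in control samples 1 to 5. It read 1.06, 0.02, 0.0087, 0.91 and 0.51 in noncancerous liver and 0.51, 0.61, -0.70, -0.20 and -0.18 in carcinoma. Of the controls 4 of 5 lay below all 5 noncancerous samples, and control 3 lay among them. Noncancerous liver differed from control by 1.24 (0.23 to 2.26, limma adjusted p = 0.421), between 1.07 and 1.57 when any 1 sample was left out, and by 0.90 (0.07 to 1.72, adjusted p = 0.996) with the running median removed. Carcinoma differed from control by 0.75 (-0.26 to 1.77, adjusted p = 0.738) and from noncancerous liver by -0.49 (-1.51 to 0.53, adjusted p = 0.666).

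As a set the 10 probes did not stand out by number of differences. Between noncancerous and control liver 2 of 10 had an unadjusted limma p under 0.05 (Igf2r and Igf1r OR0803, both higher), against 9.64% of all probes (4.02% higher and 5.62% lower), and 0 of 10 separated the groups, against 1.65%. Between carcinoma and control 1 of 10 had such a p, against 7.40% (3.65% higher and 3.75% lower), and the same probe, Igfbp5, separated the groups, against 1.89% (1.06% higher). Between carcinoma and noncancerous liver 2 of 10 had such a p (both probes of Igf1r, 1 higher and 1 lower), against 13.2% (6.95% higher and 6.28% lower), and 0 separated the groups, against 2.71% (1.46% lower). That count of 2 was 4 without noncancerous 1 and 5 with array weights, where 17.9% and 20.1% of all probes had such a p. It was 1 without carcinoma 3 and 0 without noncancerous 5, where the shares were 10% and 9.37%. The count between carcinoma and control was 2 without control 3, where 7.21% of all probes had such a p. That between noncancerous and control liver was 1 without control 4, noncancerous 1 or noncancerous 5, where the shares were 7.77%, 11% and 7.45%.

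The median difference of the 10 probes was 0.44 between noncancerous and control liver, with 9 of 10 above 0, where all probes had a median of 0.02 and 50.7% above 0. The running median at the 9 probes numbered 410 to 903 itself differed by 0.32 to 0.46 between these groups, and at OR3851 by -0.91. With it removed, the median was 0.07 and 5 of 10 lay above 0. Without noncancerous 2 the median was 0.29. Between carcinoma and control the median was 0.32 with 7 of 10 above 0, and 0.30 with 7 of 10 once the running median was removed. Between carcinoma and noncancerous liver it was -0.25 with 4 of 10 above 0, and 0.12 with 5 of 10. Without 1 sample the median between carcinoma and control was 0.19 (control 3 left out), 0.18 (carcinoma 1), 0.14 (carcinoma 5) or 0.50 (carcinoma 4), and that between carcinoma and noncancerous liver was -0.14 (noncancerous 1), -0.41 (noncancerous 5), -0.39 (carcinoma 1) or -0.046 (carcinoma 4). These comparisons share samples and are not independent of one another.

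**Figure D4:**
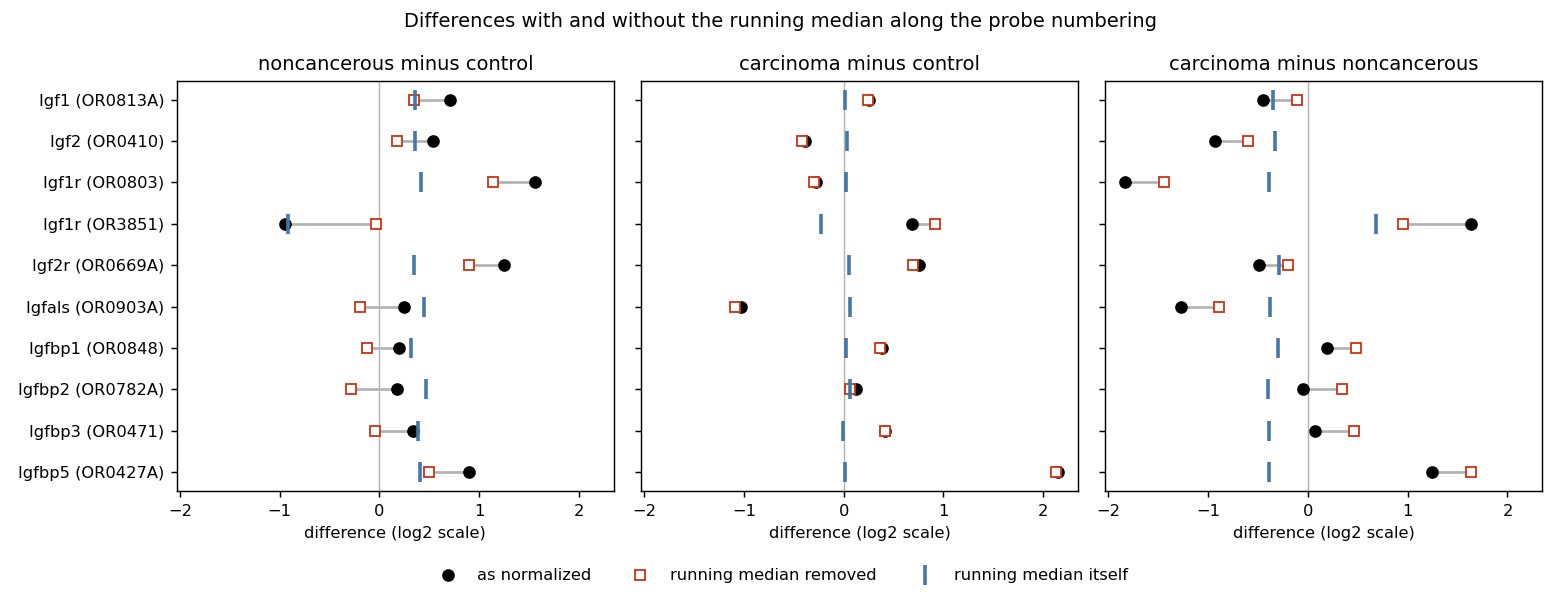
Differences between groups on the log2 scale (x axis) for the 10 IGF axis probes (y axis): black circles as normalized, open squares after the running median over neighbouring probes was subtracted, and vertical ticks the difference of that running median. Between carcinoma and control the squares stay near the circles (Igfbp5 2.15 and 2.13), while between noncancerous and control liver all 9 probes numbered 410 to 903 move down.

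Genes around the axis were read from lists of growth hormone input, receptor adaptors, the kinase cascades below the receptor, proteases and carriers of the binding proteins, and growth targets. Of their 73 measured genes 0 passed in limma in any comparison. At an unadjusted p under 0.05 they numbered 3 higher and 4 lower between noncancerous and control liver, 4 higher and 2 lower between carcinoma and control, and 7 higher and 5 lower between carcinoma and noncancerous liver. These were 9.59%, 8.22% and 16.4% of the listed genes, against 9.64%, 7.40% and 13.2% of all probes. Their median differences were 0.20, 0.06 and 0.06, against 0.02, 0.0029 and -0.02 over all probes. These counts and medians are as normalized, without the running median removed. Between noncancerous and control liver the 4 lower genes were Socs3 (OR3478), Pik3r2 (OR3599), Pik3r3 (OR3600) and Pdpk1 (OR3282). The 3 higher were Hras (OR0811), Prlr (OR1385A) and Tsc1 (OR1640A). The lower ones thus had the higher probe numbers, and the part of the numbering shift in these counts was not tested.

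Ghr, the growth hormone receptor that drives Igf1 in liver, differed by 0.57 (-0.49 to 1.62) between noncancerous and control liver, by -0.39 (-1.44 to 0.66) between carcinoma and control, and by -0.96 (-2.01 to 0.10) between carcinoma and noncancerous liver. Irs1, the main docking protein of the insulin and IGF1 receptors, differed by 0.82 (-0.32 to 1.96), -0.34 (-1.48 to 0.80) and -1.17 (-2.31 to -0.03, adjusted p = 0.367) in the same order. Insr, the insulin receptor, differed by 0.82 (-0.46 to 2.09), 0.22 (-1.06 to 1.49) and -0.60 (-1.87 to 0.67). None of the 3 passed. With the running median removed the carcinoma minus noncancerous differences of Ghr, Irs1 and Insr were -0.70, -0.73 and -0.38.

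The following differences are between carcinoma and control, and none passed over all probes. Among 13 growth hormone genes the extremes were Gh1 (1.62) and Ghrhr (1.48), and Socs3, a feedback inhibitor of cytokine signalling (-0.79), and Ghr (-0.39). Centred ratios cannot show whether Gh1 or Ghrhr transcript was present in these tissues at all. Among 11 receptor and adaptor genes the highest were Grb7 (1.38) and Grb2 (0.67 on probe OR0277), both adaptors of tyrosine kinases. The lowest were the phosphatase gene Ptpn2 (-0.82) and Grb14 (-0.75), an inhibitor of the insulin receptor. On its second probe, OR3583, the difference of Grb2 was lower by 1.22 and so below 0 (r between the probes -0.15). Among 18 genes of phosphoinositide 3-kinase, Akt and mTOR the highest were Inppl1 (1.88, 0.75 to 3.003, limma adjusted p = 0.459), a lipid phosphatase that opposes the pathway, and Tsc1. Tsc1 differed by 0.88, or by -0.36 with values at the deposited limit taken as missing. The lowest were the kinase genes Akt1 (-1.08) and Rps6kb1 (-1.01).

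Of 13 listed genes of the Ras branch 3 were measured. They were Rasa1 (-2.16, -3.73 to -0.59, limma adjusted p = 0.564), which switches Ras off, Map2k1 (-0.04) and Hras (0.45). Of 15 proteases and carriers that act on binding proteins, 10 lay above 0, from Plau, the plasminogen activator urokinase (2.65), and Ctsd (1.06) to Mmp3 (-0.81) and Mmp9 (-1.74). Of 13 growth targets, Vegfa (1.34) and Odc1 (1.01) lay highest, and the cell cycle inhibitors Cdkn1a (-0.78) and Cdkn1b (-0.34; 0.36 on the deposited values) lowest.

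Several of these differences between carcinoma and control moved by over 1.5 times when 1 sample was left out. Without control 3, Tsc1 was 0.31, Odc1 0.61 and Mmp3 -1.31, without control 4 Vegfa was 0.71, and without control 5 Ghrhr was 0.76, Ptpn2 -0.52 and Tsc1 1.42. Akt1 was -0.48 without carcinoma 1 and -1.68 without carcinoma 5, and without carcinoma 4 Rps6kb1 was -0.62 and Cdkn1a -0.28. Ghr was -0.22 without control 1. Insr, Irs1, Map2k1, Hras and Cdkn1b crossed 0.

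**Figure D5:**
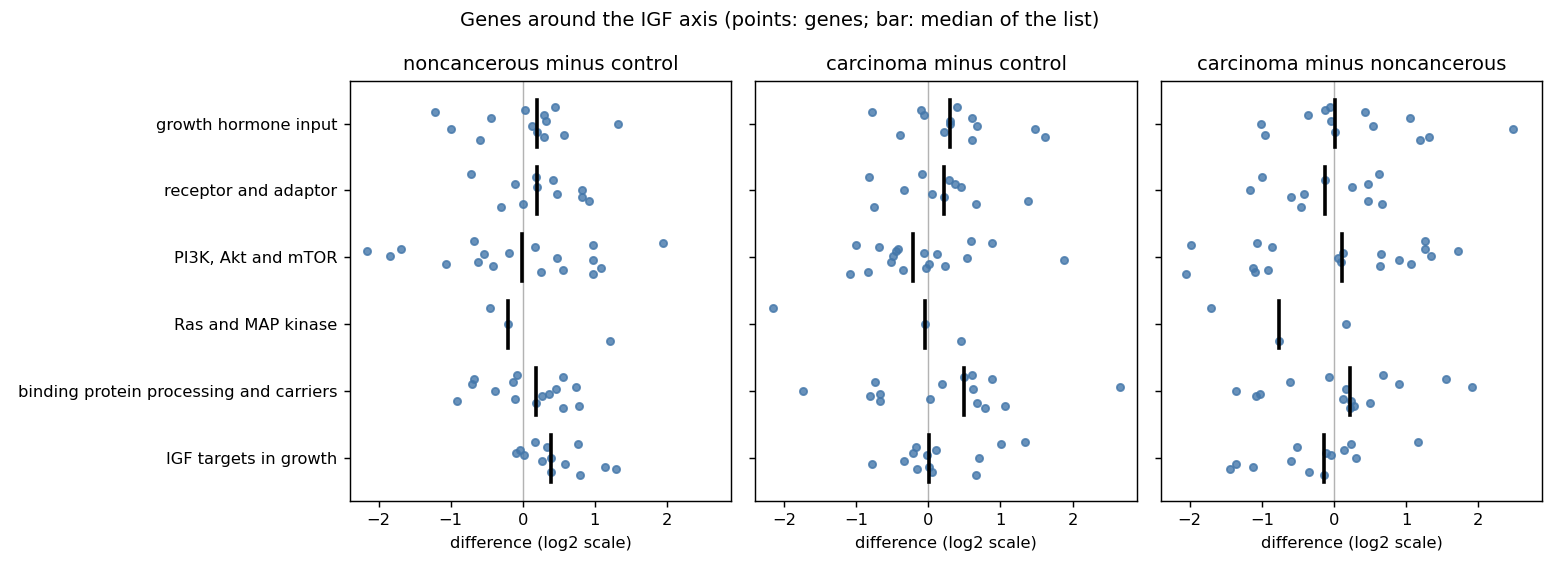
Differences between groups on the log2 scale (x axis) of the measured genes in 6 lists around the IGF axis (y axis), 1 panel per comparison; points are genes and black bars the median of the list. The points of every list lie on both sides of 0, and the medians between carcinoma and control run from -0.21 to 0.49.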

How the data were processed

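The table holds 1 value per probe and array as a linear ratio that the authors had divided by the probe's own median before they deposited it: that median was 1 within 1e-06 for all 3757 probes. The kind of array, its dyes and its software: not given in the sources used here. All columns were used. Because trimmed array means (2% cut at each end) differed up to 1.49-fold, quantile normalization was applied across the 15 arrays before values were put on the log2 scale with no pseudocount.

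All samples entered 1 fit with group as the only term (lmFit, then eBayes with trend, limma 3.58.1, R 4.3.3, 12 residual degrees of freedom). Tested on simulated data, this fit missed most 2-fold and most 4-fold changes. P-values are two-sided and adjusted over all 3757 probes. Every member probe was kept apart and named. Text also names the 3 genes most correlated with Igf2 and Igfbp5, the extremes of each pathway list between carcinoma and control, and Ghr, Insr and Irs1. Where a listed gene had several probes, that of lowest within-group spread stood for it. Members and lists were chosen with earlier results of these data known. Permutation tests used scipy 1.17.1 (100000 permutations, or all 252 splits for exact tests), and figures matplotlib 3.10.9. Alternatives were the deposited values, median scaling, a running median (50 probes on either side) subtracted, limit values as missing or their probes left out, a pseudocount of 0.1, a replicate block, no trend, only the groups compared, array weights, and samples left out. The number of arrays limits the precision.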

Additional observations from a re-analysis of the deposited data

Results flagged for a closer look

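In 2 of 30 groups of 5 values, 1 sample lay apart from the other 4 beyond the 95% limit of Dixon's test, where chance gives about 1 group in 20. Carcinoma 2 read 1.06 on Igf1r probe OR0803, with the next carcinoma at -0.92, and without it the carcinoma minus noncancerous difference was -2.30. Carcinoma 5 read 2.29 on Igfbp1, with the next carcinoma at 0.26, and without it the carcinoma minus control difference was -0.11.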

How the results depend on the processing

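Counts of probes past the adjusted threshold were 0 in all 3 comparisons under every alternative, except that leaving out 1 sample gave 0 to 2 between carcinoma and noncancerous liver (2 without noncancerous 5, neither an IGF probe). No member passed under any alternative. With the replicate block 0 probes passed, and the unadjusted counts were 370, 274 and 506 in place of 362, 278 and 497. The deviations of samples with one number from their group means were correlated above 0.1 in 1 to 3 of 5 pairs. Of 30 checks 7 found a sample closest to its own number. Control rats had another diet, so only noncancerous and carcinoma samples could share a rat. Between these groups 2 of 5 pairs were correlated above 0.1 (range -0.24 to 0.39). There 2 of 5 noncancerous and 1 of 5 carcinoma samples were closest to their own number. So few pairs cannot settle whether rats were shared, and the numbers were not taken as pairs.

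Of the differences of members under settings other than leaving out 1 sample, 13 changed sign and 314 did not. Igfals could not be fitted where probes with a value at the deposited limit were left out. With the running median removed, noncancerous minus control turned to -0.045 for Igfbp3, -0.28 for Igfbp2, -0.12 for Igfbp1 and -0.19 for Igfals, and carcinoma minus noncancerous to 0.35 for Igfbp2. Array weights gave -0.083 and 0.14 for Igfbp2 in these comparisons. Without control 1 and noncancerous 1, Igfbp2 was -0.21, -0.14 (carcinoma minus control) and 0.068, and Igfbp1 -0.17 between noncancerous and control. Igfals was -0.82 there on deposited values and with median scaling. Among other named genes, carcinoma minus control turned for Insr (-0.10 deposited, -0.076 median scaling), Cdkn1b (0.36, 0.38, and 0.082 without control 1 and noncancerous 1), Irs1 (0.023 in that last setting) and Tsc1 (-0.36 with limit values missing).

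Leaving out 1 sample gave ranges that cross 0 between noncancerous and control for Igfals (-0.16 to 0.99), Igfbp1 (-0.038 to 0.43) and Igfbp2 (-0.13 to 0.56), between carcinoma and control for Igf1 (-0.0084 to 0.52), Igf1r OR0803 (-0.74 to 0.035), Igfbp1 (-0.11 to 0.61), Igfbp2 (-0.14 to 0.51), Insr (-0.34 to 0.64), Irs1 (-0.64 to 0.023), Map2k1 (-0.34 to 0.16), Hras (-0.017 to 0.88) and Cdkn1b (-1.01 to 0.082), and between carcinoma and noncancerous liver for Igfbp1 (-0.31 to 0.40), Igfbp2 (-0.36 to 0.26) and Igfbp3 (-0.12 to 0.27). The cause was not tested. On deposited values the median difference of all probes was 0.11 between noncancerous and control and 0.13 between carcinoma and control.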

Other observations

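Some members that the report describes only by group also had close companions over the 15 samples, chosen here after their values were seen. Igf1 ran with Fbp1, fructose-1,6-bisphosphatase of gluconeogenesis (Pearson r = 0.96), Rpl13, a ribosomal protein (r = 0.95), and Gper1, a membrane estrogen receptor (r = 0.94), and after subtraction of the running median over neighbouring probes r was 0.91, 0.96 and 0.86. Igfals ran with Gpx3, the plasma glutathione peroxidase (r = 0.90), Nf1, a brake on Ras (r = 0.89), and Apc, a brake on Wnt signalling (r = 0.86), with r of 0.90, 0.90 and 0.88 after that removal. Igf2r ran with Gal (r = 0.87), Cebpd (r = 0.85) and Tgfbr3 (r = 0.84), and after the removal r was 0.69, 0.64 and 0.68.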
